A study of Saccharomyces cerevisiae with 18 samples.

Results

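RSC is the abundant chromatin remodeller of budding yeast, and 10 of its subunits were followed here by their RNA: RSC8, STH1, SFH1, RSC1, RSC2, RSC4, RSC6, RSC9, RSC58 and NPL6. They were taken as the probe sets that the platform annotation maps to these gene names. All 10 were found, with 1 probe set each, among 5814 probe sets, and all 10 passed the filter on low values that left 5659 features for testing. RSC uses the energy of ATP to slide and eject nucleosomes, keeps promoters of actively transcribed genes free of them, and is essential for growth. It is built like SWI/SNF, its less abundant relative, and several subunits are paralogs: Rsc8 corresponds to Swi3, Sth1 to the ATPase Snf2, Sfh1 to Snf5, Rsc6 to Snf12 and Npl6 to Swp82. Because Rsc8 is the counterpart of Swi3, its level in cells that lack a normal SWI3 gene is a natural point of interest.

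Expression was measured in Saccharomyces cerevisiae of the haploid laboratory strain BY4741 on 18 Affymetrix arrays, in 6 groups of 3. The groups were an rlm1 mutant with Congo Red, the rlm1 mutant without it, a swi3 mutant with Congo Red, the swi3 mutant without it, the wild type with Congo Red and the wild type without it. Treated cultures received 30 µg/ml of Congo Red for 4 hours, and untreated cultures grew for the same 4 hours. The dye binds chitin and glucan and disturbs cell wall assembly; Rlm1 is a transcription factor activated by the MAP kinase Slt2 when the wall is damaged, and Swi3 belongs to the SWI/SNF core. The series design speaks of 3 biological samples per condition. The labels give the genotypes only as rlm1 mutant and swi3 mutant, with no allele and no count of clones.

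Each mutated gene read low in its own mutant. RLM1 averaged 4.82 ± 0.27 with Congo Red and 4.78 ± 0.12 without it in rlm1, against 10.44 ± 0.08 and 9.26 ± 0.12 in the wild type (log2 level, SD, n = 3 each). SWI3 averaged 3.37 ± 0.13 and 3.26 ± 0.11 in swi3, against 9.54 ± 0.10 and 9.55 ± 0.12 in the wild type. Markers of mating type a, the type of BY4741, were high (MFA1 from 9.90 to 13.40), and the alpha pheromone gene MF(ALPHA)1 stayed between 4.02 and 5.33. Of the genes that carry whole or partial deletions in BY4741, URA3 read 3.82 to 4.90, LEU2 5.24 to 7.84 and HIS3 10.48 to 11.43. Some arrays stood apart. The array median was 9.27 and 9.29 on the number 1 arrays of rlm1 and 9.98 to 10.02 on the other 4 rlm1 arrays; it was 9.58 to 9.70 on the 6 swi3 arrays and 10 to 10.04 on the 6 wild-type arrays. The mean gap between 3' and 5' control probe sets, which grows as RNA is degraded or less fully copied, was 1.15 and 1.03 on the number 1 arrays of rlm1, 0.76 to 0.86 on its other arrays, 0.80 to 1.26 in swi3 and 0.72 to 0.81 in the wild type. The median over features of the SD within a group was 0.41 and 0.42 in rlm1, against 0.10 to 0.15 in the other 4 groups. Strain differences are therefore given on the deposited scale and, where it matters, also after each array's median was subtracted or without the number 1 arrays of rlm1. The arrays measure RNA per amount labelled, so fewer cells with the transcript and less transcript per cell cannot be told apart.

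**Figure D1:**
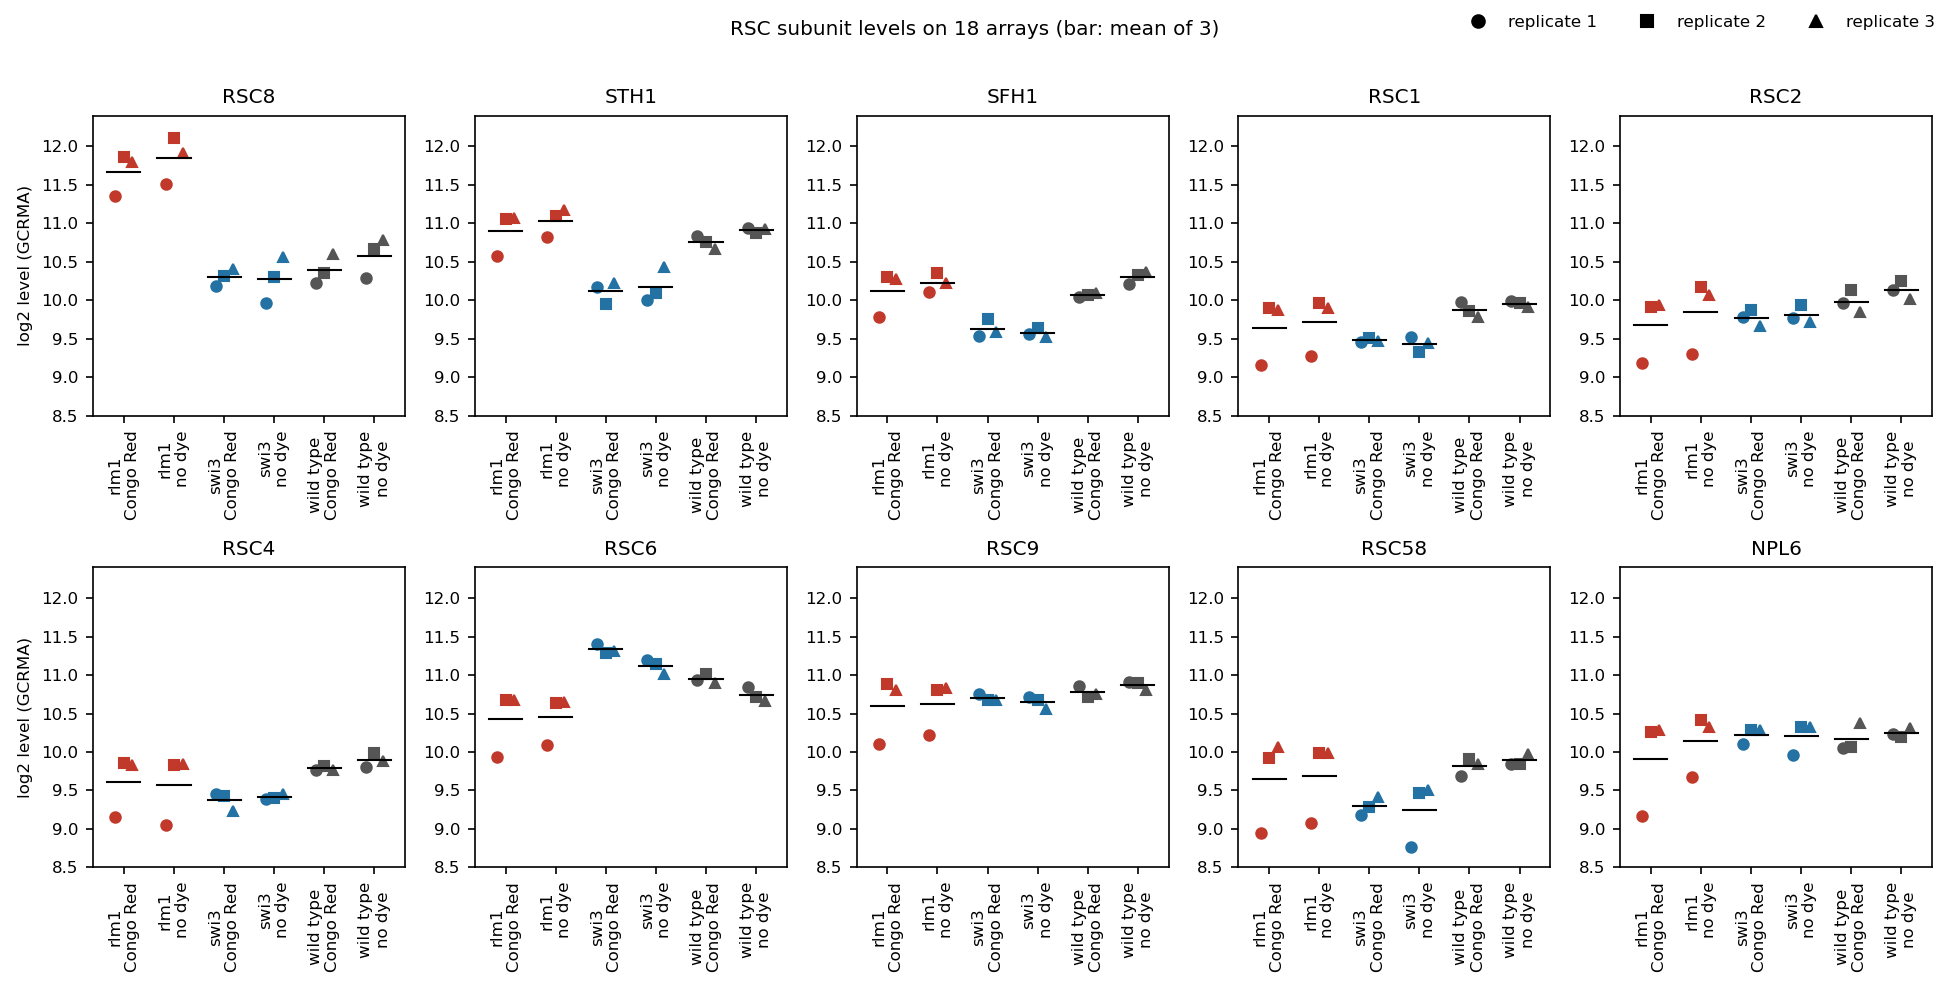
Each panel plots the deposited log2 level of 1 RSC subunit (vertical axis) on the 18 arrays, grouped by strain and dye; symbols mark the replicate number and bars the group mean of 3 arrays. RSC8 stands at 11.35 or higher on all 6 rlm1 arrays and at 10.78 or lower elsewhere, while RSC6 is highest in swi3.

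The clearest result was RSC8 itself, which was higher in rlm1 cells, with and without the dye. RSC8 encodes the scaffold subunit, present as a dimer, on which the RSC core is assembled. With Congo Red, RSC8 read 11.35, 11.86 and 11.80 in rlm1, against 10.22, 10.36 and 10.60 in the wild type. Without the dye it read 11.51, 12.11 and 11.92 in rlm1, against 10.29, 10.67 and 10.78 in the wild type. Every rlm1 array lay above every wild-type array in both conditions, as in 1.89% of all features with Congo Red and 0.76% without it. The difference was 1.28 ± 0.21 with Congo Red and 1.27 ± 0.21 without it (log2, rlm1 minus wild type, SE, n = 3 each), which is 2.42-fold and 2.41-fold. The limma fit over all 18 arrays, with Benjamini-Hochberg adjustment over 5659 features, gave an adjusted p of 0.00185 with Congo Red and 0.033 without it. The difference was not shown to depend on the dye: in the same fit, the response of RSC8 to Congo Red in rlm1 minus that in the wild type was 0.01, with a 95% interval from -0.61 to 0.63 and a limma adjusted p of 1.

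Few features were called in rlm1 at all, so RSC8 can be placed among them. A call means an adjusted p under 0.05. With Congo Red 3.64% of features were called in either direction and 0.265%, or 15 features, as higher. Without the dye 0.0707% were called in either direction and 0.0177% as higher, and that 1 higher feature was RSC8. Counted from the highest of 5659 differences, RSC8 ranked 7 with Congo Red and 5 without it. The median of all features was -0.26 with Congo Red and -0.27 without it, so RSC8 moved against the general shift. After array medians were subtracted the RSC8 difference was 1.53 in both conditions (limma adjusted p 9.3e-06 with Congo Red and 1.5e-04 without it), where 16.5% and 0.106% of features were called. Without the number 1 arrays of rlm1 it was 1.44 with Congo Red and 1.43 without it (limma adjusted p 1.7e-04 and 0.00837). The call with Congo Red held in 28 of 28 alternative settings, with adjusted p up to 0.0151. The call without the dye held in 19 of 28. It was lost when only rlm1 and wild-type arrays were fitted (adjusted p 0.13), and when any of the 3 untreated wild-type arrays (0.26, 0.142 and 0.053), untreated rlm1 number 2 or 3 (0.19 and 0.186), Congo Red wild-type number 1 or 2 (0.0536 and 0.0686) or untreated swi3 number 2 (0.0633) was left out. The difference itself stayed between 1.12 and 1.53 over these 28 settings.

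On the deposited scale none of the other 9 subunits was called in rlm1. Their differences from the wild type ran from -0.51 to 0.15 with Congo Red and from -0.31 to 0.11 without it, and the lowest limma adjusted p among them was 0.15 and 0.465. The median over all 10 subunits was -0.17 with Congo Red and -0.22 without it, beside -0.26 and -0.27 over all features. Within each array, RSC8 minus the mean of the other 9 subunits is free of any shift that all of them share. The size of this number depends on the probes, and only its change between groups can be read. It was 1.55 and 1.48 on 2 of the Congo Red arrays of rlm1 and 1.79 on number 1, and 1.77, 1.75 and 1.59 on the untreated rlm1 arrays. It lay between -0.02 and 0.37 in the wild type with Congo Red and between -0.04 and 0.46 without it. The number 1 arrays of rlm1, low for the other subunits, thus did not stand below the other rlm1 arrays on this scale.

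**Figure D2:**
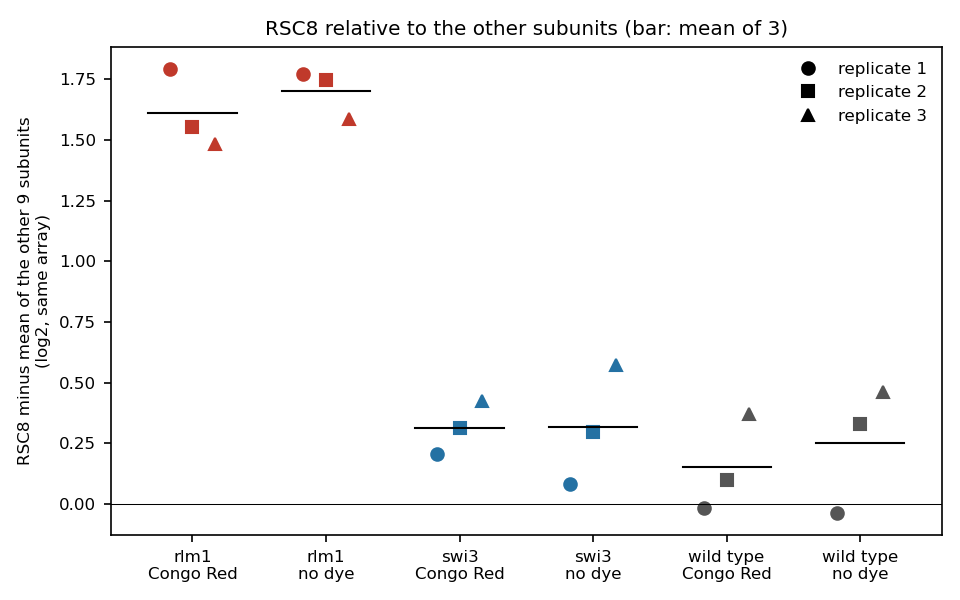
The vertical axis gives RSC8 minus the mean of the other 9 subunits on the same array (log2), for each of 18 arrays by group, with bars at the group means. The 6 rlm1 arrays lie between 1.48 and 1.79, above the 6 swi3 arrays (0.08 to 0.57) and the 6 wild-type arrays (-0.04 to 0.46).

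STH1 and SFH1 were the subunits nearest to RSC8 in rlm1, though neither was called on the deposited scale. STH1 is the catalytic ATPase. It averaged 10.90 ± 0.28 in rlm1 with Congo Red, against 10.76 ± 0.09 in the wild type with Congo Red, a difference of 0.15 ± 0.16 (limma adjusted p 0.588). After array medians were subtracted this difference was 0.40 and was called (limma adjusted p 0.046, where 16.5% of features were called); without the dye it was 0.38 and was not (0.375). RSC6 lay lower: it read 9.94, 10.68 and 10.68 in rlm1 with Congo Red, against 10.93, 11.01 and 10.90 in the wild type with Congo Red. These arrays did not overlap, and 29.2% of all features lay below the wild type in this way. The difference of -0.51 ± 0.19 was not called (limma adjusted p 0.15). Without the number 1 arrays of rlm1 the RSC6 difference was -0.27 and was called (limma adjusted p 0.0261), in a fit that called 17.3% of features.

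The neighbourhood of RSC8 on its chromosome did not share its change. RSC8 lies on chromosome VI in assembly R64, and 9 of its 10 nearest genes, 5 on each side, were measured. Their differences in rlm1 without the dye ran from -0.68 to -0.02 and none was called. With Congo Red they ran from -0.60 to 0.20 and none was called. KEG1, 5 genes away, was the lowest without the dye at -0.68 ± 0.36 (limma adjusted p 0.462).

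In swi3 cells RSC8, the SWI3 paralog, was not called either way. RSC8 read 10.19, 10.32 and 10.41 in swi3 with Congo Red, against 10.22, 10.36 and 10.60 in the wild type with Congo Red. Without the dye it read 9.96, 10.30 and 10.57 in swi3, against 10.29, 10.67 and 10.78 in the wild type. The arrays of the 2 strains overlapped in both conditions. The difference was -0.09 with Congo Red (95% interval -0.52 to 0.35, limma adjusted p 0.764) and -0.30 without it (-0.74 to 0.13, limma adjusted p 0.251). After array medians were subtracted it was 0.26 and 0.06 (limma adjusted p 0.208 and 0.782). Directly against swi3, RSC8 in rlm1 was higher by 1.36 with Congo Red and by 1.57 without it (limma adjusted p 2.9e-04 and 8.1e-05); this comparison of the mutants was added after the data were seen.

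Across the 6 groups the mean of RSC8 was highest in rlm1 without the dye (11.85 ± 0.31), followed by rlm1 with Congo Red (11.67 ± 0.28). The wild type followed at 10.58 ± 0.26 without the dye and 10.39 ± 0.19 with it, and swi3 came last at 10.31 ± 0.11 with the dye and 10.28 ± 0.31 without it (SD, n = 3 each). The only gap between neighbours in this order that exceeded their spread was the one between rlm1 and the wild type.

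STH1 and SFH1 were the subunits called lower in swi3. STH1 read 10.18, 9.95 and 10.23 in swi3 with Congo Red, against 10.84, 10.76 and 10.67 in the wild type with Congo Red. Without the dye it read 10, 10.09 and 10.44 in swi3, against 10.94, 10.88 and 10.93 in the wild type. All swi3 arrays lay below all wild-type arrays, as in 58.4% of all features with Congo Red and 66.2% without it. The STH1 difference was -0.64 ± 0.16 with Congo Red and -0.74 ± 0.16 without it (limma adjusted p 0.0118 and 0.00487). SFH1, an essential core subunit related to human SMARCB1, read 9.54, 9.76 and 9.59 in swi3 with Congo Red, against 10.04, 10.07 and 10.10 in the wild type with Congo Red. Without the dye SFH1 read 9.56, 9.64 and 9.53 in swi3, against 10.21, 10.33 and 10.37 in the wild type. Its swi3 arrays, too, lay below the wild-type arrays, the common state in swi3 by the same shares. The SFH1 difference was -0.44 ± 0.14 with Congo Red and -0.73 ± 0.14 without it (limma adjusted p 0.0369 and 0.00217). The SFH1 difference was not shown to depend on the dye: the response in swi3 minus that in the wild type was 0.29 ± 0.20 (limma adjusted p 1).

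These calls came in a comparison where lower values were common. In swi3 22.1% of features were called with Congo Red, 18.9% as lower, and 26.2% were called without the dye, 22.4% as lower. So 2 lower calls among 10 subunits are close to the background in both conditions. The median over the 10 subunits was -0.30 with Congo Red and -0.40 without it, beside -0.37 and -0.41 over all features. After array medians were subtracted, STH1 remained lower without the dye at -0.37 and SFH1 at -0.36 (limma adjusted p 0.0411 and 0.0446), in a fit that called 29.9% of features. With Congo Red neither was called on that scale (-0.29, adjusted p 0.0956, and -0.10, adjusted p 0.586), where 31.9% of features were called. The STH1 call with Congo Red was also lost without Congo Red wild-type number 1 (0.0511) or Congo Red swi3 number 2 (0.0609). The SFH1 call with Congo Red was lost when any 1 of the 3 Congo Red wild-type arrays, any 1 of the 3 Congo Red swi3 arrays or untreated wild-type number 2 was left out (limma adjusted p 0.0518 to 0.112), and under quantile normalization (0.547) and a trended robust prior (0.0615). Without the number 1 arrays of rlm1, which enter the shared estimate of spread, 6 of 10 subunits were called in swi3 with Congo Red and 8 of 10 without it. With Congo Red 5 were lower (STH1, SFH1, RSC1, RSC4 and RSC58) and RSC6 was higher. Without the dye 7 were lower, RSC2 and RSC9 beside those named, and RSC6 was higher. That fit called 67.1% and 72.2% of all features. Of 5659 features, 3340 were lower and 458 higher with Congo Red, and 3631 lower and 455 higher without it.

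**Figure D3:**
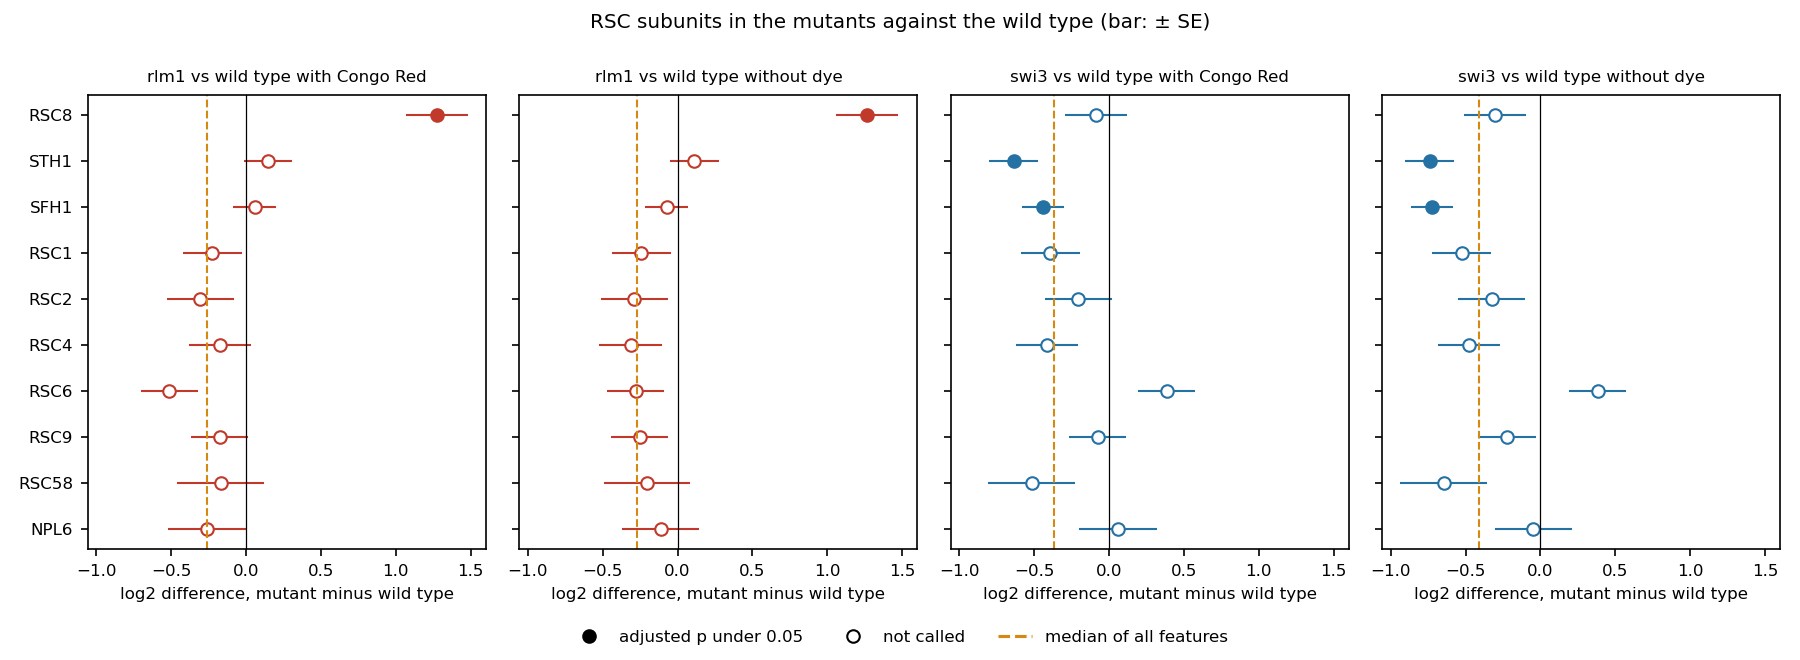
Each panel gives the log2 difference, mutant minus wild type, of the 10 subunits (horizontal axis) with its SE, filled where the adjusted p was under 0.05; the dashed line is the median of all 5659 features. RSC8 stands at 1.28 and 1.27 in the rlm1 panels, and in swi3 the STH1 and SFH1 points are filled while RSC6 lies above 0.

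RSC6 was the subunit with swi3 arrays above the wild-type arrays; the only other positive difference in swi3 was that of NPL6 with Congo Red, at 0.06. Rsc6 is a core subunit and the counterpart of Snf12. RSC6 read 11.40, 11.29 and 11.31 in swi3 with Congo Red, against 10.93, 11.01 and 10.90 in the wild type with Congo Red. Without the dye it read 11.20, 11.15 and 11.02 in swi3, against 10.85, 10.71 and 10.66 in the wild type. All swi3 arrays lay above all wild-type arrays in both conditions, which held for 8.04% of features with Congo Red and 8.43% without it. In the fit over all arrays on the deposited scale, the difference was 0.39 ± 0.19 with Congo Red and 0.38 ± 0.19 without it. Neither was called (limma adjusted p 0.144 and 0.133). Without the number 1 arrays of rlm1, RSC6 was called higher in both conditions on the deposited scale. That fit called 458 of 5659 features higher with Congo Red and 455 without the dye. After array medians were subtracted the RSC6 difference was 0.73 and 0.75 and was called in both (limma adjusted p 1.6e-05 and 1.2e-05). In the fit after this subtraction, 16% of features were called higher with Congo Red and 14.7% without the dye. NPL6 and RSC9 were called higher beside RSC6 on that scale with Congo Red only (0.40 and 0.27, limma adjusted p 0.0179 and 0.0232), where STH1 and SFH1 were not called. The response differences of NPL6 and RSC9 between swi3 and the wild type were not called on that scale. On the deposited scale NPL6 was at 0.06 and RSC9 at -0.08, so these calls rest on the scaling.

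The RSC6 values lay with those of chromosome III in general. RSC6 is the only one of the 10 subunits on that chromosome in assembly R64. In swi3 the median of its 147 measured features was 0.38 above the wild type both with Congo Red and without it, whereas the medians of the other 15 chromosomes ran from -0.42 to -0.33 with Congo Red and from -0.47 to -0.37 without it. RSC6 differed from its chromosome's median by 0.01 with Congo Red and by 0.00 without it. The excess of chromosome III over the rest, each set against the wild type of the same condition, was 0.68 to 0.81 on all 6 swi3 arrays and -0.03 to 0.04 on the 12 others. The 9 measured genes among the 10 nearest to RSC6 were all above 0 in swi3, at 0.21 to 1.31 with Congo Red and 0.03 to 1.11 without it, and 4 were called higher in each condition. Without the dye, chromosome III held 37 of the 209 higher calls that could be placed on a chromosome, or 17.7%, while it held 2.70% of the placed features. Not all of its features were higher: 76.9% were above 0 with Congo Red and 78.9% without it, and 7 and 9 were called lower. In rlm1 the chromosome III median was -0.27 with and without the dye, inside the range of the other chromosomes. DNA copy number of the chromosome was not measured, and its part in the RSC6 result was not tested.

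**Figure D4:**
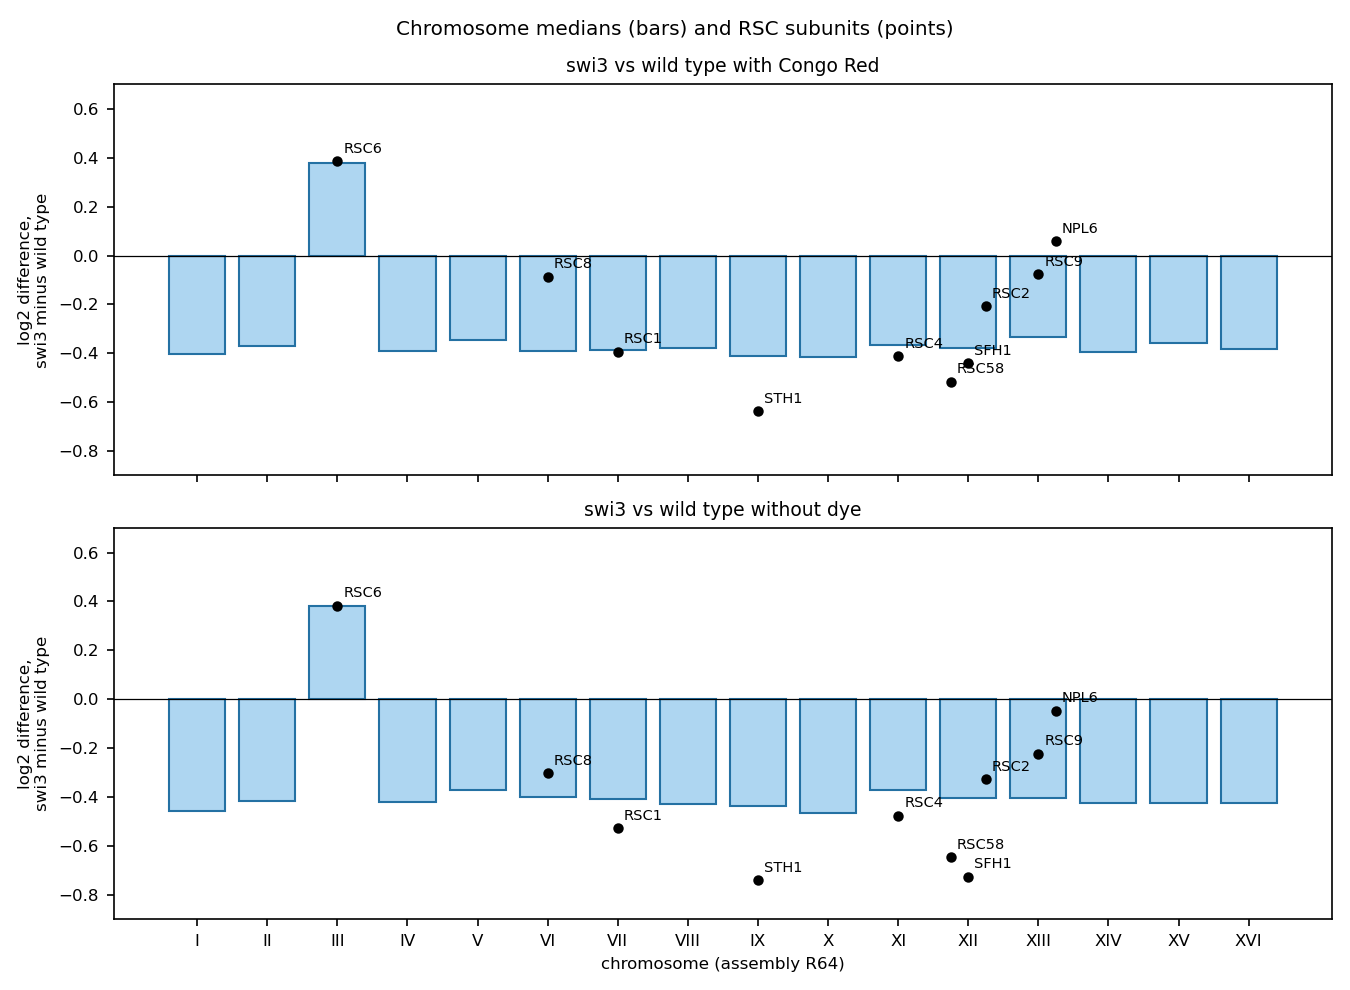
Bars give the median log2 difference, swi3 minus wild type, of the measured features on each of 16 chromosomes, and points give the 10 RSC subunits, with Congo Red above and without the dye below. Chromosome III stands at 0.38 in both panels, with RSC6 at its bar's end, while the other chromosomes lie between -0.47 and -0.33.

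RSC1, RSC2 and RSC4 encode subunits with bromodomains that read acetylated histones. They showed no call in any strain comparison of the 18-array fit of group means. Rsc1 and Rsc2 are alternative members of separate forms of RSC, and Rsc4 is common to both. In swi3 without the dye RSC1 was at -0.53 ± 0.20 (limma adjusted p 0.0595), RSC4 at -0.48 ± 0.21 (0.0968) and RSC2 at -0.33 ± 0.22 (0.256). RSC1 read 9.52, 9.33 and 9.44 in swi3 without the dye, against 9.99, 9.96 and 9.92 in the wild type. All 3 genes had swi3 arrays entirely below the wild-type arrays, as did 66.2% of all features. Without the number 1 arrays of rlm1 all 3 were called lower in this comparison, where 72.2% of features were called. With the array numbers as a block RSC1 was called lower in it, where 41.4% were. With Congo Red RSC1 was at -0.39, RSC4 at -0.41 and RSC2 at -0.21, and the arrays overlapped for RSC2. Without the number 1 arrays of rlm1 RSC1 and RSC4 were called lower there, beside 67.1% of features called. In rlm1 the 3 genes lay between -0.31 and -0.17 in the 2 conditions, near the median of all features.

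The remaining subunits were RSC9, which has a DNA-binding domain, RSC58 and NPL6. RSC58 read 9.18, 9.29 and 9.42 in swi3 with Congo Red, against 9.69, 9.91 and 9.84 in the wild type with Congo Red. Without the dye RSC58 read 8.76, 9.47 and 9.50 in swi3, against 9.85, 9.85 and 9.97 in the wild type. Its swi3 arrays lay below the wild-type arrays, again beside 58.4% and 66.2% of all features. The differences of -0.52 ± 0.29 and -0.65 ± 0.29 were not called (limma adjusted p 0.193 and 0.102). NPL6 averaged 10.23 ± 0.11 in swi3 with Congo Red, against 10.17 ± 0.19 in the wild type with Congo Red, and 10.20 ± 0.21 in swi3 without the dye, against 10.25 ± 0.06 in the wild type. RSC9 averaged 10.65 ± 0.08 in swi3 without the dye, against 10.87 ± 0.06 in the wild type. Neither was called, at -0.05 for NPL6 (limma adjusted p 0.892) and -0.22 for RSC9 (0.36) without the dye. NPL6 also had the widest spread of any subunit within a group, with an SD of 0.64 in rlm1 with Congo Red, where number 1 read 9.17 and the other arrays 10.26 and 10.29.

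Between the mutants, 4 of 10 subunits were called in each condition, where 16.2% of features were called with Congo Red and 16.2% without it. In rlm1 relative to swi3, RSC8, STH1 and SFH1 were higher and RSC6 was lower. STH1 was higher by 0.78 with Congo Red and by 0.85 without it (limma adjusted p 0.0035 and 0.0019). RSC6 was at -0.90 and -0.66 (limma adjusted p 0.00402 and 0.026). All 4 were also called in both conditions after array medians were subtracted. Those fits called 32.5% of features with Congo Red and 31.9% without it. NPL6 was called lower as well on that scale, with Congo Red only.

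Congo Red itself left the 10 subunits within narrow limits. In the limma fit over all 18 arrays 0 of 10 were called in rlm1, 0 of 10 in swi3 and 0 of 10 in the wild type, and 0 of 10 had an unadjusted p under 0.05 in any of the 3 strains. Over all features 0.0884% were called in rlm1, 0.159% in swi3 and 2.05% in the wild type. An unadjusted p under 0.05 was found for 67 of 5659 features in rlm1, 121 in swi3 and 590 in the wild type. The differences ran from -0.23 to 0.04 in rlm1, from -0.06 to 0.21 in swi3 and from -0.23 to 0.21 in the wild type. The widest 95% intervals of single subunits reached from -0.78 to 0.67. The median over the 10 was -0.08 in rlm1, 0.04 in swi3 and -0.10 in the wild type, beside 0.00, 0.03 and -0.01 over all features. In rlm1 9 of 10 subunits were below 0, in swi3 3 of 10 and in the wild type 9 of 10, beside 47.4%, 40.3% and 50.5% of all features. Without the number 1 arrays of rlm1, 5 of 10 were below 0 in rlm1 and 4 above, so the rlm1 tally rests on those arrays. The response of the mutants differed from that of the wild type for 0 of 10 subunits, with 0.318% of features called for rlm1 and 0.106% for swi3. At an unadjusted p under 0.05 this was also 0 of 10 for both mutants, beside 186 of 5659 features for rlm1 and 108 for swi3.

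Arrays of the same number within a strain deviated together, and with the numbers as a block the wild-type result changed. RSC6 was then called higher with Congo Red (0.21, limma adjusted p 0.031), and SFH1 and RSC2 lower (-0.23 and -0.15, limma adjusted p 0.0332 and 0.0351). These 3 of 10 stand beside 32.8% of all features called in that fit, so their number is near the background. RSC6 read 10.93, 11.01 and 10.90 with Congo Red in the wild type, against 10.85, 10.71 and 10.66 without it, and the same-numbered differences were 0.08, 0.30 and 0.24. SFH1 read 10.04, 10.07 and 10.10 with Congo Red, against 10.21, 10.33 and 10.37 without it, with same-numbered differences of -0.17, -0.26 and -0.27. Neither gene had overlapping arrays, as was the case for 37.1% of all features. RSC6 and SFH1 were also the 2 subunits called in the wild type without the number 1 arrays of rlm1 (limma adjusted p 0.0456 and 0.0336), where 18.7% of features were called. With the block, 0 of 10 subunits were called in rlm1 and 0 of 10 in swi3, beside 1.75% and 7.23% of features. RSC6 had the same difference of 0.21 in swi3, where its block limma adjusted p was 0.0773, and arrays with the dye lay above those without it, as in 7.67% of all features.

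**Figure D5:**
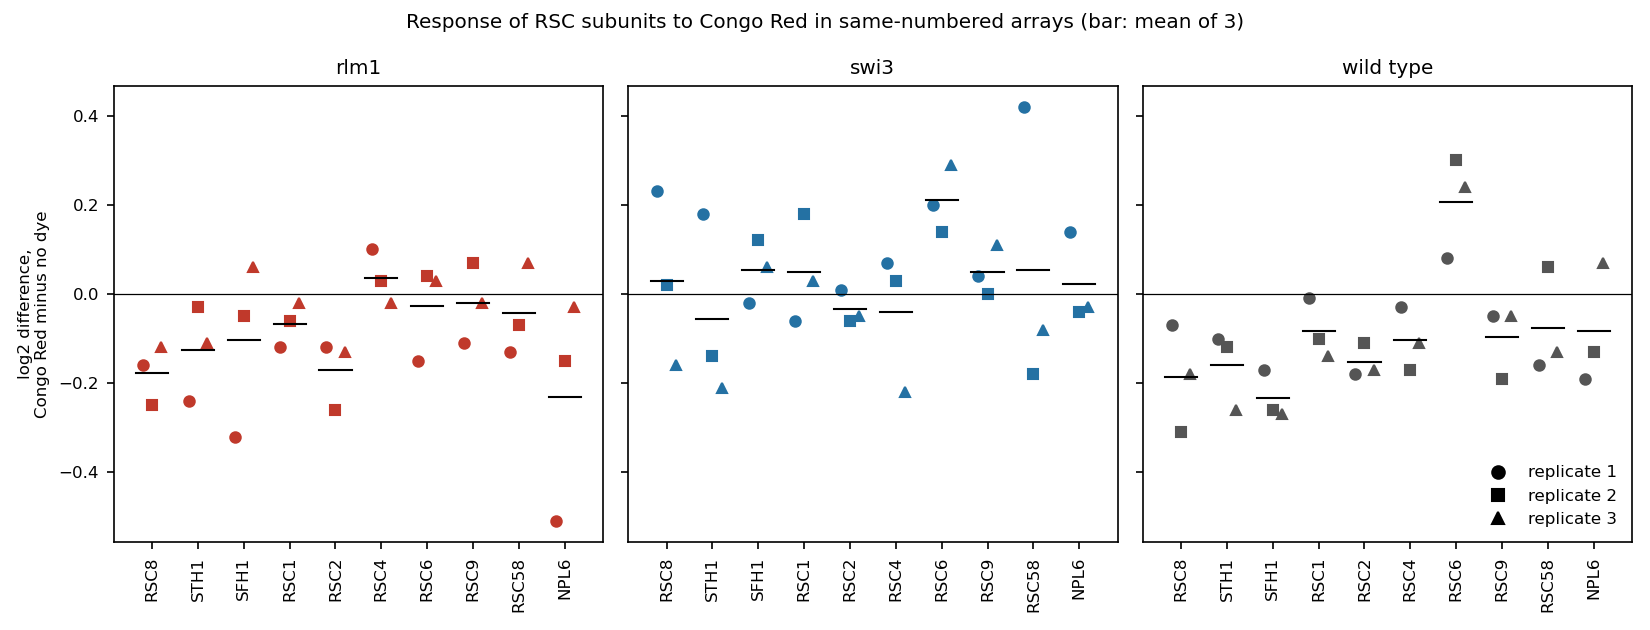
The vertical axis gives the log2 difference, Congo Red minus no dye, between same-numbered arrays of a strain for the 10 subunits, with 3 symbols per gene and bars at the mean. In the wild type all 3 RSC6 values are above 0 (0.08 to 0.30) and all 3 SFH1 values below 0 (-0.27 to -0.17).

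Other genes of the complex and its relatives give the setting. Of 7 further RSC genes, the platform annotation names 6: the zinc cluster DNA-binding subunit RSC3, HTL1, LDB7, the actin-related ARP7 and ARP9, and RTT102. RSC30 was not analysed here. In the 18-array fit of group means 0 of 6 were called in any comparison of a mutant with the wild type. At an unadjusted p under 0.05 it was 1 of 6, RSC3, in swi3 without the dye (-0.60 ± 0.27, limma adjusted p 0.108). In that comparison 2438 of 5659 features had an unadjusted p under 0.05. HTL1, which also lies on chromosome III, was at 0.82 with Congo Red and 0.54 without it in swi3, but its arrays spread from 4.79 to 8.56 over the 6 groups and neither was called. Among 9 subunits of SWI/SNF, SWI3, SNF12 and SNF11 were called lower in swi3 in both conditions. Lower calls made up 18.9% of all features with Congo Red and 22.4% without it. SWI3 is the mutated gene of this strain, so its low value was given in advance. Only SNF12 and SNF11 can be set beside those shares. In each condition 8 of 9, SWI3 among them, were below 0, beside 81.8% of all features with Congo Red and 84.9% without it. SNF11 was not called after array medians were subtracted (-0.12 and -0.06, limma adjusted p 0.575 and 0.812). SNF12, the paralog of RSC6, was at -0.66 ± 0.20 with Congo Red and -0.76 ± 0.20 without it (limma adjusted p 0.0288 and 0.0136), and was called in both after array medians were subtracted (-0.31 and -0.40, limma adjusted p 0.00834 and 0.0017). Those fits called 31.9% of features with Congo Red and 29.9% without the dye. They also called SWI1 higher in both conditions and SNF6 higher without the dye. The other paralogs SNF2, SNF5 and SWP82 were not called in swi3 without the dye, at -0.27, -0.31 and -0.52. In rlm1 0 of the 9 were called, with 0 at an unadjusted p under 0.05 without the dye and 2 with Congo Red. Over all 5659 features an unadjusted p under 0.05 was found for 466 without the dye and 1162 with Congo Red. Of 6 other remodeller ATPases, 0 were called in swi3 with Congo Red in the limma fit (1 at an unadjusted p under 0.05, beside 2185 of 5659 features). Without the dye ISW1 and SWR1 were called lower (-0.51 and -0.76, limma adjusted p 0.0499 and 0.0471), where 22.4% of features were, and not after array medians were subtracted (0.394 and 0.0719).

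The named genes whose pattern was most like that of RSC8 were found by Pearson's r over the 18 arrays after array medians were subtracted. They were TAF12 (r = 0.93), FOB1 (0.92), ERV14 (0.92), BRE5 (0.90) and HRB1 (0.90). The arrays share 3 strains, so these r describe mostly strain differences. BRE5 had a change as large as that of RSC8 in rlm1, at 1.42 with Congo Red and 1.50 without it, but was at -1.04 and -1.10 in swi3. Without the dye BRE5 was not called in rlm1 in the 18-array fit of group means, where RSC8 alone was called higher. It was called higher there after array medians were subtracted and with the array numbers as a block. TAF12 was at 0.14 and 0.18 in rlm1 and at -0.32 and -0.35 in swi3. For the mean of the 10 subunits the nearest were TAF12 and ERV14 (0.89 each), RRP9 (0.89), GDS1 (0.88) and POL2 (0.88).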

How the data were processed

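The deposited table holds log2 probe set values; GCRMA (background correction by probe sequence, normalization, probe summary) is the tool in the submitters' processing notes. Its version, and which arrays were normalized together, are not given in the sources used here. Of 5814 probe sets, 98 controls were left out. Gene names came from the platform annotation, with 12 updated from the table of assembly R64, which also gave chromosomes and neighbours. For each gene the probe set with the highest mean was kept (49 dropped), and a level of 4 on at least 3 arrays was required (8 removed), leaving 5659 features.

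Means of the 6 groups were fitted with limma 3.58.1 in R 4.3.3 (lmFit, eBayes), with Benjamini-Hochberg adjustment over all features and calls at an adjusted p under 0.05. The fit was also run on simulated data with independent noise on each array. That noise lacks the correlation of same-numbered arrays, so the simulation does not check the fit under it. The number of arrays limits the precision. Deviations of same-numbered arrays correlated within strains (r 0.419 to 0.909). Between strains r ran from -0.195 to 0.245 for rlm1 and the wild type and from 0.0872 to 0.67 for swi3 and the wild type. The numbers were taken as pairs for Congo Red only, which the labels do not state. Blocked strain comparisons serve only as alternatives, also for swi3, where all same-numbered r were above 0. All 10 subunits were named, with the listed RSC genes, SWI/SNF paralogs, called remodeller ATPases and the 5 genes most like RSC8 or the mean. Members and lists were chosen with earlier results of these data known. No sequences are printed, and no coordinates, since the labels name no build; R64 served for gene order only.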

Additional observations from a re-analysis of the deposited data

How the results depend on the processing

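Over 10 planned settings the single-gene tests gave 766 of 900 results with the same direction and side of the threshold, 5 that lost a call, 65 that gained one, 61 that changed sign without a call and 3 that changed sign and were called; leaving out 1 array gave 1511 of 1620 alike, 17 lost and 9 gained calls, 83 changed signs without a call and 0 called reversals. The called reversals were SFH1 in rlm1 with Congo Red against none under array weights (0.0847, limma adjusted p 0.00686, against -0.10), and RSC9 in swi3 against the wild type with Congo Red under quantile normalization (0.18, adjusted p 0.0354) and subtracted array medians (0.27, adjusted p 0.0232), against -0.08; the cause was not tested. Subunits called in the wild type with Congo Red against none went to 1 under quantile normalization, 2 under array weights, 2 without the number 1 arrays of rlm1 and 3 with the replicate block, in place of 0. Array weights called 3 in place of 0 for Congo Red in rlm1 and 3 in place of 0 for the response difference of rlm1. For rlm1 against the wild type without dye the count of 1 became 5 under array weights, 0 with the strains of the contrast alone and 0 to 1 on leaving out 1 array; with Congo Red the count of 1 became 4 under quantile normalization, 2 with array medians subtracted, 4 under array weights and 2 without the number 1 arrays. For swi3 against the wild type without dye the count of 2 became 9 under array weights, 8 with the strains alone, 8 without the number 1 arrays of rlm1, 4 with the replicate block, 3 with array medians subtracted (RSC6 beside STH1 and SFH1) and 2 to 6 on leaving out 1 array; with Congo Red the count of 2 became 4 under quantile normalization, 1 with a trended robust prior, 7 under array weights, 6 with the strains alone, 6 without the number 1 arrays of rlm1, 3 with array medians subtracted (RSC6, NPL6 and RSC9, neither STH1 nor SFH1) and 0 to 4 on leaving out 1 array. Leaving out untreated or Congo Red rlm1 number 1 gave the 5 and 6 of the untreated swi3 comparison. Counts over all features moved as widely: 1480 calls in swi3 without dye became 4086 without the number 1 arrays of rlm1, and 116 for Congo Red in the wild type became 1856 with the replicate block. For swi3 without dye the share called was 72.2% without those arrays, 41.4% with the replicate block and 29.9% with array medians subtracted. With Congo Red it was 67.1% without those arrays and 31.9% with array medians subtracted. Shares for array weights, the strains alone, quantile normalization and the trended robust prior are not given here. The subunit counts in those settings therefore have no background beside them and are not read as a result about RSC. Array weights spanned 0.0217 to 28.0, with 28.0 and 26.0 on 1 rlm1 array of each condition, and their estimate stopped before full convergence. The replicate block changed no other Congo Red call. The 3 arrays per group limit precision, and probe signal over background was not used here.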
